A study of Homo sapiens with 38 samples.

Results

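The clustered protocadherins were examined across 27 RNA-seq libraries of established human neuroblastoma lines. The members were every row of the count tables whose symbol was a PCDHA gene (PCDHA1 to PCDHA14 in the annotation used, with PCDHAC1 and PCDHAC2), a PCDHB gene or a PCDHGA, PCDHGB or PCDHGC gene. That rule gave 54 genes, of 50652 listed for BE2C and 50778 for the other 4 lines: 14 alpha, 16 beta, 12 gamma A and 7 gamma B genes and 5 C-type genes (PCDHAC1, PCDHAC2, PCDHGC3, PCDHGC4 and PCDHGC5). PCDHA14 is a pseudogene in the annotation used for positions, with 0 bases of exon unique to it there. It is kept among the 14 alpha genes and had no read in any library.

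BE2C cells received GSK-J4, an inhibitor of the histone H3K27 demethylases KDM6A and KDM6B, at 2.5 µM for 0, 24 or 48 h, with 2 libraries per time. BE2C cells also received a control siRNA (siCtrl, 2 libraries) or an siRNA labelled against KDM6B, named N1, N2 and N33 (1 library each), for 72 h. CHLA15 and CHLA20 cells received palbociclib, a CDK4/6 inhibitor, at 0.3 µM for 72 h, NB1643 and NB1691 cells received it at 3 µM for 72 h, and each line had 2 treated and 2 untreated libraries. No untreated BE2C library was matched to the 24 and 48 h times, so GSK-J4 and time in culture cannot be told apart, and the palbociclib dose cannot be told apart from the pair of lines. The labels describe cell lines but their extraction text speaks of xenograft tissue, nothing states that libraries of a group came from separate cultures, and p-values therefore measure only the spread between these libraries.

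Clustered protocadherins are cadherin-family adhesion proteins of the neuronal surface that bind their like on the facing membrane, and the combination a neuron makes is known for self-recognition of its own dendrites and axons. Each gene has a variable exon with its own promoter. The alpha variable exons are spliced to a shared set of constant exons, the gamma variable exons to another, and the beta genes have no constant exon. Many of the promoters carry a conserved element around the letters CGCT and are contacted by CTCF and cohesin, which loop them to distant enhancers. C-type genes sit at the ends of the alpha and gamma arrays and are chosen less randomly than the others.

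On GRCh37 the members lie on the plus strand of chromosome 5, from chr5:140165721 at the start of PCDHA1 to chr5:140892544 at the end of PCDHGC3. The constant exons make 2866 exonic bases common to 15 alpha-array genes, PCDHAC1 and PCDHAC2 included, and 2177 bases common to all 22 gamma-array genes. A read there belongs to several genes at once, and counting by overlap sets it aside as ambiguous, so alpha and gamma counts come mainly from the variable exons and are lower than beta counts for the same amount of RNA. Ambiguous reads were 2.48 to 2.79% of the GSK-J4 libraries, 2.40 to 2.67% of the siRNA libraries and 2.87 to 3.85% of the palbociclib libraries, over all genes. Levels are given in CPM, a gene's share of the counts of its library rescaled to a fixed total and adjusted by TMM factors. They are divided by the length of exon unique to a gene, CPM per kb, where genes are compared with each other.

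The 150 bases before the start site of 9 members are shown because the members that led a line or moved with treatment came from different arrays with different promoter elements. All are on the plus strand of GRCh37, written 5′ to 3′, with CGCT or its reverse complement AGCG in capitals. PCDHA8 (chr5:140220622-140220771), PCDHB10 (chr5:140571776-140571925) and PCDHB14 (chr5:140602765-140602914) rose with palbociclib in all 4 lines. PCDHA10 (chr5:140235318-140235467) led the alpha genes of BE2C in CPM. PCDHB4 (chr5:140501250-140501399), PCDHB6 (chr5:140529488-140529637) and PCDHGB7 (chr5:140797062-140797211) separated the untreated lines. PCDHGA11 (chr5:140800464-140800613) fell with palbociclib in 3 lines and PCDHGC3 (chr5:140855364-140855513) fell with GSK-J4.
PCDHA8: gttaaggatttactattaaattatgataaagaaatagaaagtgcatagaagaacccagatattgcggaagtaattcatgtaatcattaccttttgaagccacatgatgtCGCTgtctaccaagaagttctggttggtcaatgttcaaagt
PCDHA10: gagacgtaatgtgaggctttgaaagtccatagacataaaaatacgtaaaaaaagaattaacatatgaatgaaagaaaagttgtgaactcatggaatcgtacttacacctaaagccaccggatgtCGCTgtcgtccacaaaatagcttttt
PCDHB4: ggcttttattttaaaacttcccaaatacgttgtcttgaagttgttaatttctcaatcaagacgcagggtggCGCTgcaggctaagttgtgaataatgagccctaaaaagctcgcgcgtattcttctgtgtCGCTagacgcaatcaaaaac
PCDHB6: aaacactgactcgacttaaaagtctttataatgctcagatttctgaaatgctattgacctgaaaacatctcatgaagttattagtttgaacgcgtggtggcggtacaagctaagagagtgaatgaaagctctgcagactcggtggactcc
PCDHB10: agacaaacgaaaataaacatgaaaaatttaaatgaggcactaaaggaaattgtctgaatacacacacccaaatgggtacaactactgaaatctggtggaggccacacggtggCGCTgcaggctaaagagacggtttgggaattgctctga
PCDHB14: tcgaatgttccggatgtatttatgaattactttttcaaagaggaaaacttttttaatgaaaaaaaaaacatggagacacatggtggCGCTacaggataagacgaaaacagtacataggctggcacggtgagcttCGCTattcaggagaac
PCDHGB7: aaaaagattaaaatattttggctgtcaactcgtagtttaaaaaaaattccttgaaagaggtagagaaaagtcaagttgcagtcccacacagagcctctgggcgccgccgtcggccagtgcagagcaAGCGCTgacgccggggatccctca
PCDHGA11: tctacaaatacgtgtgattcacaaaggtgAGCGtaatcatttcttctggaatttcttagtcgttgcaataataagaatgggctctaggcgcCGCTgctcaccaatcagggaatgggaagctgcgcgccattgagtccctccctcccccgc
PCDHGC3: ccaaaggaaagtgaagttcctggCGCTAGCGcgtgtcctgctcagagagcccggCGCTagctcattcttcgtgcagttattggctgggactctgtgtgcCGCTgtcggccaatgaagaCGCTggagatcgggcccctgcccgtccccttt

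The letters CGCT, searched on both strands in the 250 bases before the start, stood in 49 of 54 members (90.7%), against 70.9% of the windows of 20102 protein-coding genes. PCDHA9, PCDHA11, PCDHA14, PCDHB8 and PCDHGC5 lacked them in this window. The annotated start lay 724 bases before the coding start in PCDHA9, 921 in PCDHA11 and 0 in PCDHA7. In the other alpha genes with a coding start it lay 113 to 172 bases before. The window thus covers another stretch in PCDHA9, PCDHA11 and PCDHA7. Longer forms, chosen by reading these promoters and each containing CGCT in its letters or overlapping it, followed the arrays. GGTGGCGCT stood in 13 of 16 beta genes and in no other member, against 0.562% of all windows, and the beta genes without it were PCDHB1, PCDHB6 and PCDHB8. GATGTCGCT stood in 10 of 14 alpha genes, against 0.114% of all windows. CGCCGCTGT stood in 4 of 12 gamma A, 4 of 7 gamma B and 0 of 5 C-type genes, against 0.378%. The matches began at a median of 66 bases before the start in beta genes (range 16 to 84), 47 in alpha genes (23 to 201) and 69.5 in gamma genes (43 to 98). The alpha match at 201 bases was that of PCDHA7. A match describes the letters and is not evidence of binding.

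Each library held 36186567 to 93011010 reads counted in genes, so 3 counts, used as the floor, correspond to at most 0.0829 CPM. The members together took 0.0249 to 0.0328% of those reads in the GSK-J4 libraries, 0.0270 to 0.0546% in the siRNA libraries and 0.0174 to 0.0383% in the palbociclib libraries. Of 7 adrenergic neuroblastoma markers (PHOX2A, HAND2, GATA3, ISL1, DBH, TH and CHGA), all were at 1 CPM or above in every BE2C library, and 6 were so in every library of the other lines, the exception being TH in NB1691. Markers of other cell types summed to at most 4.31 CPM in BE2C. NB1691 stood apart, with COL1A1, a fibroblast collagen gene, at 14558 to 19850 CPM and the 7 neuroblastoma markers summing to 389 to 603 CPM, against 1924 to 2860 CPM in NB1643. COL1A2, the other fibroblast collagen gene of the list, was at 1.76 and 1.63 CPM in untreated NB1691 and at 1.24 and 0.964 CPM with palbociclib. COL1A1 was thus high there without COL1A2. The part of these markers in the differences of NB1691 given below was not tested. In bulk libraries, fewer cells of a type and less RNA per cell cannot be told apart.

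The number of members detected and the genes that dominated differed between the lines. BE2C came from the GSK-J4 and siRNA experiments and the other lines from the palbociclib experiment, each scaled separately. Line and experiment therefore cannot be told apart where BE2C is set beside the others. At a level of at least 0.5 CPM in every library, 47 of 54 members were detected in BE2C at 0 h, 47 with siCtrl, 41 in CHLA15, 35 in CHLA20, 42 in NB1691 and 25 in NB1643. All 6 of these groups shared 19 members, 10 of them beta genes, with PCDHA8, PCDHAC2, PCDHGC3, 4 gamma A and 2 gamma B genes as the rest. PCDHA14 and PCDHB1 were detected in none of the 6.

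BE2C was led by PCDHGC3, a C-type gene, per kb of exon unique to a gene. Its level was 51.7 and 53.6 CPM in the libraries at 0 h and 26.9 and 32.2 CPM in the siCtrl libraries, so the 2 sets of BE2C controls did not overlap. Per length it stood at 16.2 CPM per kb at 0 h, followed by the beta genes PCDHB16 at 7.35 and PCDHB2 at 4.67 CPM per kb. These 3 genes made 34.0% of the members' CPM at 0 h and 27.0% with siCtrl. PCDHA10, at 21.2 and 21.0 CPM, took the third place at 0 h in CPM without length. The same held with only unique coding sequence as the length, an alternative chosen after the data were seen. With siCtrl, PCDHB16 came before PCDHGC3 per kb of all exons and per kb of unique coding sequence.

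CHLA15 and CHLA20 were led by PCDHGB7, a gamma B gene. PCDHGB7 was at 110 CPM in both untreated CHLA15 libraries and at 84.9 and 78.0 CPM in the untreated CHLA20 libraries. The same gene was at 0.914 and 0.844 CPM in NB1643, at 0.944 and 0.873 CPM in NB1691, and at 4.69 and 3.97 CPM in BE2C at 0 h. The CHLA libraries thus lay far above all the others, with no overlap, and PCDHGB7 alone made 36.3% of the members' CPM in CHLA15 and 34.9% in CHLA20. PCDHGC3 and PCDHB5 came next, at 8.20 and 7.01 CPM per kb in CHLA15 and 6.20 and 6.00 CPM per kb in CHLA20.

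NB1643 was led by PCDHB4, a beta gene, at 33.7 and 38.4 CPM, and NB1691 by PCDHGC3, at 43.6 and 45.3 CPM. Per length, PCDHB4 in NB1643 stood at 9.47 CPM per kb, with PCDHGC3 at 8.82 and PCDHB10 at 5.48 CPM per kb after it, and the first 2 differ by little. With unique coding sequence as the length, or in CPM without length, PCDHB14 took the place of PCDHB10. In NB1691, PCDHB5 at 7.07 and PCDHB6 at 6.23 CPM per kb followed PCDHGC3 at 13.7 CPM per kb. PCDHGC3 was thus among the first 3 in all 5 lines.

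**Figure D1:**
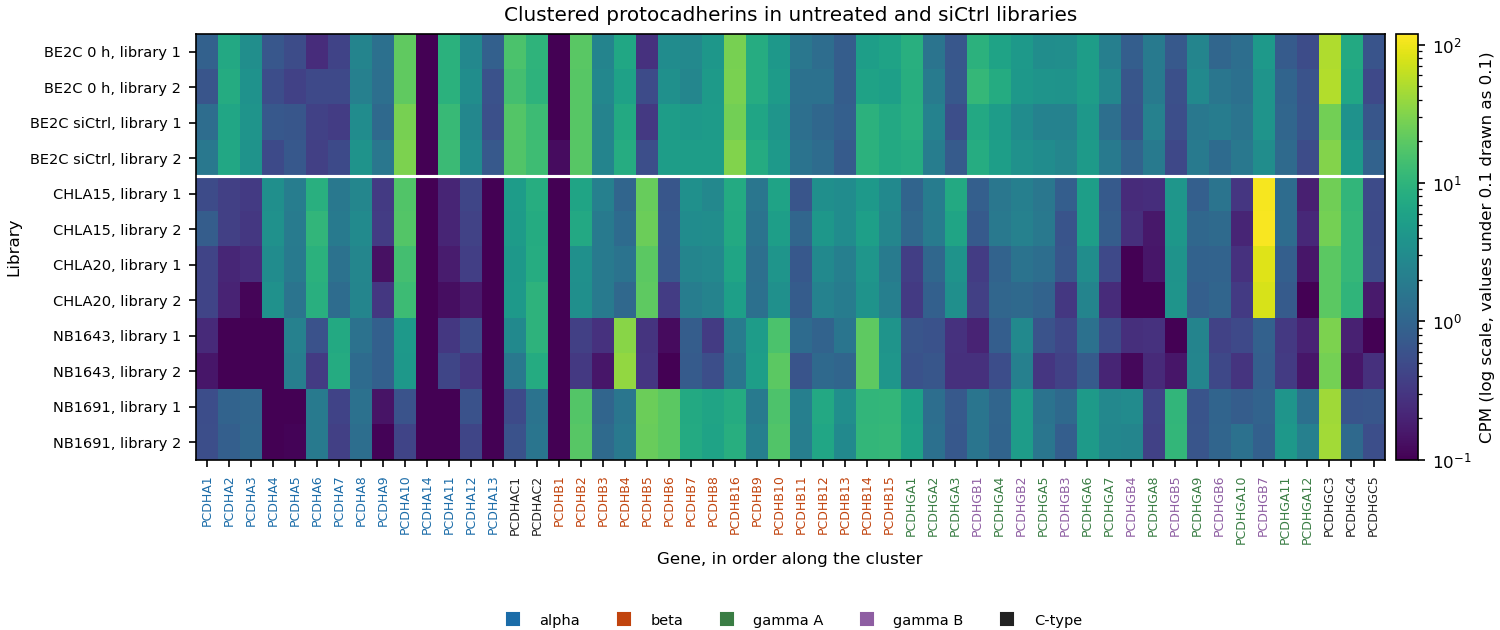
Level of each clustered protocadherin (columns, in order along chromosome 5, names coloured by array) in the untreated and siCtrl libraries (rows), as CPM on a log colour scale with values under 0.1 drawn as 0.1. PCDHGC3 is high in every row, PCDHGB7 is near 100 CPM in CHLA15 and CHLA20 alone, and NB1643 shows the most dark columns, with 25 of 54 members detected.

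Of the pairs compared, the order of the members was most alike between the 2 BE2C control sets and between CHLA15 and CHLA20. Across the 53 members other than PCDHA14, Spearman's rho of mean levels was 0.971 between BE2C at 0 h and with siCtrl and 0.985 between CHLA15 and CHLA20. It was 0.475 for CHLA15 with NB1643, 0.418 for CHLA15 with NB1691, 0.486 for CHLA20 with NB1643, 0.387 for CHLA20 with NB1691 and 0.263 for NB1643 with NB1691. These are descriptions across genes that share exon lengths and libraries. Among the 4 lines of the palbociclib experiment, 26 members were highest in NB1691, 16 in CHLA15, 9 in NB1643 and 2 in CHLA20.

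Differences among the 4 untreated lines were tested with edgeR's quasi-likelihood method, with Benjamini-Hochberg adjustment over all genes tested and a threshold of 0.05, which is the call used throughout. Of the 51 members tested, 50 differed among the lines, all but PCDHA12, against 91.2% of all genes tested. Between NB1691 and NB1643, 34 members were higher in NB1691 (44.6% of all genes were) and 11 were lower (36.1% of all genes were), with a median log2 fold change of 1.38 for the members and 0.13 for all genes. With upper-quartile scaling the median of all genes was -0.05 and that of the members 1.19. Between CHLA20 and CHLA15, 22 members were lower in CHLA20 (6.07% of all genes were) and 0 were higher (6.29%), with a median of -0.47. That count fell to 9 without CHLA20 control replicate 2, 10 without CHLA15 control replicate 1 and 11 without CHLA15 control replicate 2.

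The beta gene PCDHB6 showed the widest contrast between NB1691 and NB1643. It had 1263 and 1515 reads in the NB1691 libraries, or 20.2 and 20.0 CPM, and 9 and 4 reads in the NB1643 libraries, or 0.123 and 0.0767 CPM. The groups lay far apart, and the fitted log2 difference was 7.57 ± 0.21 (SE; edgeR adjusted p = 8.94e-17). PCDHGB5 and PCDHB5 differed in the same direction, by 6.79 ± 0.20 and 6.34 ± 0.11 on the log2 scale, from 4 and 8 reads and from 21 and 16 reads in NB1643. PCDHB4, PCDHA7 and PCDHA5 went the other way. PCDHB4 was at 1.60 and 1.76 CPM in NB1691 against 33.7 and 38.4 CPM in NB1643, a log2 difference of -4.42 ± 0.11. PCDHA7 differed by -4.25 ± 0.15 and PCDHA5 by -4.63 ± 0.29, and PCDHA5 had 4 and 8 reads in the NB1691 libraries. With so few reads in the lower group, the fitted values of PCDHB6, PCDHGB5 and PCDHA5 depend on the prior count of the fit.

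The members that were lower in CHLA20 than in CHLA15 were mainly beta and gamma genes: 9 beta, 7 gamma A, 4 gamma B, 1 alpha and 1 C-type gene. PCDHGA1 was at 0.371 and 0.332 CPM in CHLA20 and at 0.989 and 1.10 CPM in CHLA15, with no overlap, a log2 difference of -1.55 ± 0.23 (edgeR adjusted p = 0.000216). PCDHGB1 differed by -1.12 ± 0.29 and PCDHGA7 by -1.06 ± 0.32, both at levels under 1 CPM. The call for PCDHGB1 was lost without CHLA15 control replicate 1 (edgeR adjusted p = 0.134) and that for PCDHGA7 without CHLA20 control replicate 2 (adjusted p = 0.344). The C-type gene that was lower was PCDHGC3, at 20.2 and 20.1 CPM against 26.0 and 27.4 CPM. The sums over the subclusters kept the same order in both lines, with gamma B first at 88.5 CPM ± 5.3 (SD, n = 2) in CHLA20 and 120 ± 0.17 in CHLA15.

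With GSK-J4 the members that rose at 24 h were below the share of all genes and those that fell were near it. At 48 h the risers were above the share of all genes. At 24 h, 53 members were tested against 0 h, and 13 fell (28% of all genes did) while 2 rose (27.3% of all genes did). The median log2 fold change was -0.02, against 0.01 for all genes. By array, 4 of 13 alpha genes fell and 1 rose, 6 of 16 beta genes fell and 1 rose, 2 of 12 gamma A genes fell, 1 of 5 C-type genes fell and no gamma B gene was called. With upper-quartile scaling the split was 4 higher and 11 lower. The 13 became 7 without the second library at 0 h. The 2 became 1 without the second library at 0 h or the first at 24 h, and 5 without the second at 24 h.

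At 48 h, 29 members rose against 0 h (37.1% of all genes did) and 4 fell (34.4% of all genes did). The median log2 fold change of the members was 0.42, against 0.05 for all genes, which became 0.53 and 0.16 with upper-quartile scaling. The genes that rose were 8 of 13 alpha, 10 of 16 beta, 6 of 12 gamma A, 4 of 7 gamma B and 1 of 5 C-type. PCDHB8, PCDHGB7 and PCDHGC3 were among the 4 that fell, the other being PCDHA11, an alpha gene named after its values were seen, and the 4 became 2 without the first library at 0 h. Detected members numbered 47 at 0 h, 46 at 24 h and 52 at 48 h. Reads outside annotated genes were 11.3 to 11.5% at 0 h, 11.5 to 11.8% at 24 h and 13.9 to 14.2% at 48 h, and their part in the rise was not tested.

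PCDHGC3, the leading member of BE2C at 0 h, moved most among those with levels of at least 0.5 CPM that fell. It was at 51.7 and 53.6 CPM at 0 h, 29.3 and 30.9 CPM at 24 h and 20.7 and 20.3 CPM at 48 h. The 3 times did not overlap, and each was lower than the one before. In the siCtrl libraries, without GSK-J4 and scaled separately, PCDHGC3 was at 26.9 and 32.2 CPM. Its values at 24 h lay between these and those at 48 h below them. The log2 fold change was -0.81 ± 0.05 at 24 h (edgeR adjusted p = 3.55e-19) and -1.36 ± 0.05 at 48 h (adjusted p = 7.97e-28). The other C-type genes behaved differently. PCDHAC1 was at 16.01 and 14.5 CPM at 0 h and at 18.3 and 18.9 CPM at 48 h, a rise of 0.28 ± 0.07 on the log2 scale. PCDHAC2, PCDHGC4 and PCDHGC5 were not called at either time, with log2 fold changes of -0.02 ± 0.08, -0.06 ± 0.10 and -0.01 ± 0.35 at 48 h. The summed C-type level went from 85.3 ± 0.56 CPM (SD, n = 2) at 0 h to 63.8 ± 2.3 at 24 h and 56.1 ± 0.23 at 48 h.

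Among alpha genes, PCDHA1 rose at both times. It was at 0.911 and 0.647 CPM at 0 h, 1.43 and 1.21 CPM at 24 h and 1.99 and 1.82 CPM at 48 h, and no groups overlapped. The log2 fold change was 0.76 ± 0.26 at 24 h (edgeR adjusted p = 0.0107) and 1.29 ± 0.24 at 48 h (adjusted p = 4.42e-06), and the call at 24 h was lost without the second library at 0 h (edgeR adjusted p = 0.141). PCDHA12 fell by 0.73 ± 0.17 at 24 h, from 2.73 and 3.24 CPM to 1.85 and 1.75 CPM, and stood at 3.03 and 3.02 CPM at 48 h, inside its range at 0 h. The alpha sum was 51.5 ± 0.18 CPM at 0 h, 47.9 ± 3.0 at 24 h and 70.8 ± 1.8 at 48 h, above the 0 h libraries at the last time alone.

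Among beta genes with a mean of at least 0.5 CPM, PCDHB5 had the largest log2 fold change at 48 h, 1.41 ± 0.33 (edgeR adjusted p = 0.000197). Its values were 0.276 and 0.507 CPM at 0 h, 0.590 and 0.617 CPM at 24 h and 1.07 and 1.01 CPM at 48 h, low in BE2C throughout. PCDHB13 rose by 1.28 ± 0.24, from 0.8004 and 0.816 CPM to 1.67 and 2.33 CPM. PCDHB8 fell at both times, by 0.54 ± 0.14 at 24 h and 0.43 ± 0.13 at 48 h, from 4.22 and 4.73 CPM to 3.12 and 3.02 CPM and then 3.21 and 3.46 CPM. PCDHB1, the second member that rose at 24 h and named here after its values were seen, had 0.0828 and 0 CPM at 0 h, at the floor, 0.379 and 0.277 CPM at 24 h and 0.448 and 0.628 CPM at 48 h. The gamma B gene PCDHGB7 fell by 0.37 ± 0.13 at 48 h (adjusted p = 0.01001), from 4.69 and 3.97 CPM to 3.35 and 3.34 CPM. At 48 h the edgeR adjusted p of PCDHGB7 was 0.168 without the first library at 0 h, and that of PCDHB8 was 0.0527 without the second.

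From 24 to 48 h, 35 members rose (25.9% of all genes did) and 1, PCDHGC3, fell (28% of all genes did), with a median log2 fold change of 0.53. The risers were 9 of 13 alpha, 13 of 16 beta, 7 of 12 gamma A, 5 of 7 gamma B and 1 of 5 C-type genes. PCDHB12 had the largest change among those named. It was at 0.927 and 1.21 CPM at 24 h and at 2.98 and 3.06 CPM at 48 h, far apart, a log2 change of 1.49 ± 0.18 (edgeR adjusted p = 1.16e-09). The alpha genes PCDHA9 and PCDHA3 rose by 1.25 ± 0.18 and 1.10 ± 0.13.

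**Figure D2:**
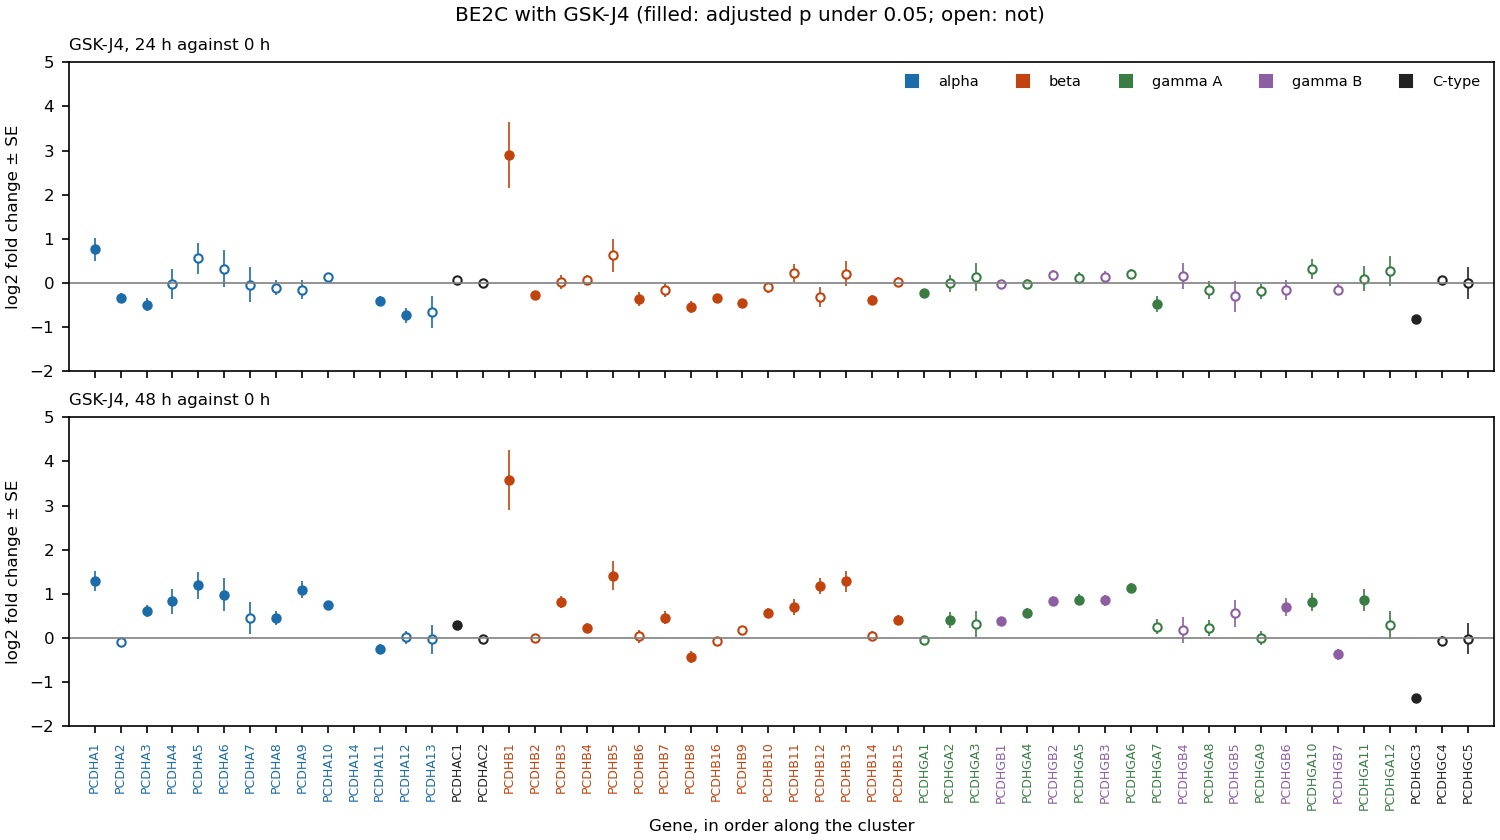
Log2 fold change ± SE of each tested clustered protocadherin in BE2C with GSK-J4, 24 h against 0 h (top) and 48 h against 0 h (bottom), in order along the cluster and coloured by array. Filled points passed an adjusted p of 0.05. At 24 h the filled points are 13 below and 2 above zero, at 48 h they are 29 above and 4 below, and PCDHGC3 lies lowest among the filled points at 48 h at -1.36.

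KDM6B, the target of the siRNAs, was measured first in that experiment. It was at 6.47 and 8.76 CPM in the siCtrl libraries, 8.99, 7.11 and 8.26 CPM in the libraries labelled siKDM6B N1, N2 and N33. The values overlapped, and the log2 fold change was 0.09 ± 0.30 (edgeR adjusted p = 0.945), so KDM6B mRNA was not lower in the libraries labelled siKDM6B. With GSK-J4 KDM6B rose by 1.07 ± 0.08 at 24 h and by 1.58 ± 0.07 at 48 h on the log2 scale.

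No member passed the test between the 3 libraries labelled siKDM6B and the 2 siCtrl libraries, as for all genes (0% called by edgeR). At an unadjusted p under 0.05 there were 24 of 52 members tested, against 9.24% of all genes. DESeq2 called 3 members higher, PCDHGA7, PCDHGB5 and PCDHGB7, and 70 higher and 94 lower among all genes, and limma-voom called 0. The values of most members were nonetheless arranged in the same way: in 34 of 52 all 3 siKDM6B libraries lay above both siCtrl libraries (16.3% of all genes), and in 0 of 52 all 3 lay below (16.8% of all genes). The median log2 fold change was 0.91, against 0.04 for all genes. By array it was 0.57 for alpha, 1.04 for beta, 0.99 for gamma A, 1.15 for gamma B and 0.34 for C-type genes.

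The libraries differed in which arrays were high. In N2, 51 of 52 members lay above both siCtrl libraries (44.1% of all genes) and 0 below both (43.9%). In N1, 43 lay above (44.8%) and 4 below (44.8%), and in N33, 43 lay above (45.7%) and 5 below (45.4%). Against the siCtrl mean, with 0.1 CPM added, the median log2 ratio over the tested members was 0.68 in N1, 1.10 in N2 and 0.68 in N33. Beta genes had medians of 0.31 in N1, 1.11 in N2 and 1.15 in N33, so N1 was lowest there. C-type genes had medians of 0.63 in N1, 0.31 in N2 and -0.12 in N33, so the order of libraries was not the same in each array.

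PCDHGB5 had the largest fitted change of the named members, on low values. It was at 0.547 and 0.470 CPM in the siCtrl libraries and at 1.68, 1.83 and 1.37 CPM in N1, N2 and N33. The groups did not overlap, with a log2 change of 1.67 ± 0.39 (edgeR adjusted p = 0.520). PCDHGB7 was at 3.96 and 3.27 CPM with siCtrl and at 7.71, 8.35 and 7.68 CPM with the 3 siRNAs, a log2 fold change of 1.13 ± 0.30, also not called. PCDHGA7 was at 1.34 and 1.88 CPM with siCtrl and at 4.21, 5.21 and 3.41 CPM with the siRNAs. Both sit above their controls in each library.

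PCDHGC3 was at 26.9 and 32.2 CPM with siCtrl and at 45.6, 58.2 and 46.8 CPM with N1, N2 and N33, higher in all 3, with a log2 change of 0.77 ± 0.24 (edgeR adjusted p = 0.522). PCDHAC2 was at 12.8 and 13.4 CPM with siCtrl and at 13.6, 15.3 and 5.90 CPM with the siRNAs, so only N33 lay below. PCDHGC4 was at 3.71 and 4.77 CPM with siCtrl and at 8.30, 4.93 and 2.85 CPM with the siRNAs. PCDHAC1 and PCDHGC5 had log2 fold changes of 0.25 ± 0.27 and 0.84 ± 0.49, neither called. In N33 the 7 neuroblastoma markers summed to 719 CPM, against 2118 and 2228 CPM with siCtrl and 2387 and 1952 CPM in N1 and N2. None of the 7 passed the test. Reads outside annotated genes were 14.1 to 14.3% with siCtrl, 18.9% in N1, 18.1% in N2 and 14.2% in N33, and the part of either measure in the members' levels was not tested.

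**Figure D3:**
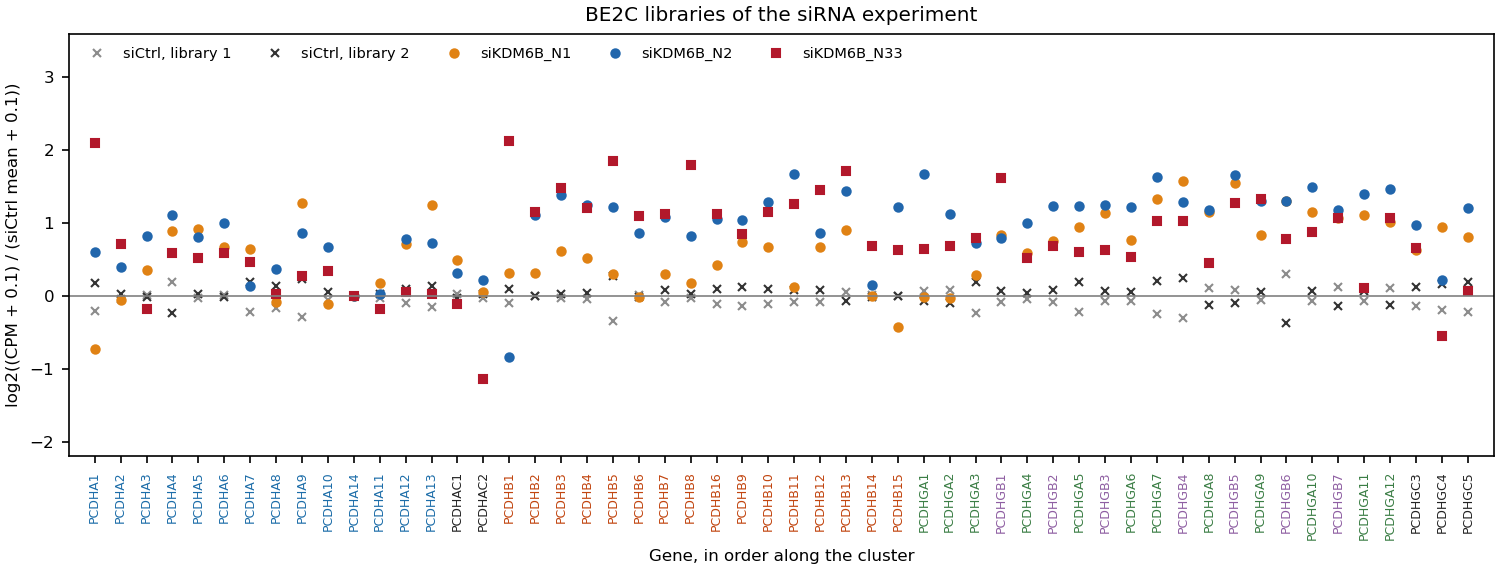
Log2 ratio of each clustered protocadherin to the siCtrl mean, with 0.1 CPM added to both, in each library of the siRNA experiment (crosses, siCtrl; circles and squares, N1, N2 and N33). Most points of the 3 siKDM6B libraries lie above zero, with 34 of 52 tested members above both siCtrl libraries in all 3, and the points of N33 fall below zero at PCDHAC2 and PCDHGC4.

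With palbociclib, more members rose than fell in each of the 4 lines, and in NB1691 the risers were near the share of all genes. In CHLA15, 16 of 51 tested members rose (14.2% of all genes did) and 3 fell (15.6%). In CHLA20, 20 rose (13.7%) and 1 fell (15.9%), in NB1643, 17 rose (20.3%) and 2 fell (19.7%), and in NB1691, 9 rose (17.4%) and 1 fell (15.5%). The median log2 fold change was 0.20, 0.35, 0.47 and 0.22 in that order, against 0.00 to 0.02 for all genes. The members that rose were mostly alpha and beta genes: 5 alpha and 9 beta in CHLA15, 5 and 10 in CHLA20, 5 and 8 in NB1643 and 2 and 5 in NB1691. No alpha or beta gene fell in any of the 4 lines. Of 7 tested markers of other cell types, 1 rose and 2 fell in CHLA15, 2 and 2 in CHLA20, 2 and 0 in NB1643 and 3 and 1 in NB1691. COL1A1 fell from 94.1 and 99.1 CPM to 30.5 and 35.6 CPM in CHLA15 and from 106 and 97.4 CPM to 42.2 and 43.1 CPM in CHLA20. It rose from 0.355 and 0.901 CPM to 1.24 and 1.39 CPM in NB1643 and from 14841 and 14558 CPM to 18995 and 19850 CPM in NB1691. COL1A2, the other fibroblast collagen gene, went the opposite way to COL1A1 in the CHLA lines. It was at 1.40 and 1.65 CPM and then at 3.48 and 3.75 CPM in CHLA15, and at 2.16 and 2.84 CPM and then at 4.59 and 5.15 CPM in CHLA20. In NB1691 it was at 1.76 and 1.63 CPM and then at 1.24 and 0.964 CPM, and in NB1643 it was at most 0.102 CPM. The part of these markers in the members' changes was not tested.

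These counts depended on single libraries. The 2 untreated libraries agreed least in NB1643 and CHLA20, where the chi-square per degree of freedom between their counts was 24.3 and 19.2. In the other groups of this experiment it was 2.22 to 7.14. All groups shared a common estimate of the spread. The 16 in CHLA15 became 9 without palbociclib replicate 2 and 10 without control replicate 1. Its 3 became 1 without palbociclib replicate 1 or control replicate 1 and 0 without control replicate 2. The 20 in CHLA20 became 13 without control replicate 2, and its 1, PCDHGA11, became 0 without palbociclib replicate 2 or control replicate 1. The 2 in NB1643 became 1 without palbociclib replicate 2. The 9 in NB1691 became 5 or 4 without either palbociclib replicate, and 3 or 4 without either control replicate, and its 1 became 0 without palbociclib replicate 2 or control replicate 2.

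PCDHA6, PCDHA8, PCDHB10 and PCDHB14 rose in all 4 lines, that is 4 of 51 members, against 3.53% of all genes. At least 3 lines shared 11 risers (8.67% of all genes), the others being PCDHA5, PCDHB3, PCDHB5, PCDHB7, PCDHB9, PCDHB15 and PCDHB16. While 30 members rose in at least 1 line, 21 of 51 rose in none, beside 14094 of 22133 genes tested that rose in none. PCDHGA11 was the only member that fell in 2 or more lines, 1 of 51 (18.7% of all genes), and these names were chosen after their values were seen.

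PCDHB10 was at 6.10 and 5.29 CPM in untreated CHLA15 and at 8.34 and 8.71 CPM with palbociclib. In CHLA20 it was at 4.07 and 3.47 CPM and then at 7.04 and 7.36 CPM. In NB1643 it was at 16.1 and 20.0 CPM and then at 34.7 and 32.9 CPM, and in NB1691 at 16.6 and 17.5 CPM and then at 25.7 and 25.3 CPM. Treated and untreated libraries were apart in every line, with log2 fold changes of 0.57 ± 0.11, 0.93 ± 0.12, 0.91 ± 0.09 and 0.58 ± 0.09. Its edgeR adjusted p ranged from 1.75e-07 in NB1643 to 0.000425 in CHLA15. The beta gene PCDHB14 rose by 0.38 ± 0.10, 0.74 ± 0.10, 0.94 ± 0.08 and 0.60 ± 0.08 in the same order of lines.

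PCDHA8 was at 2.56 and 3.01 CPM in untreated CHLA15 and 3.90 and 3.94 CPM with palbociclib. It was at 2.57 and 2.51 CPM and then 3.78 and 3.46 CPM in CHLA20, at 1.43 and 1.19 CPM and then 2.78 and 2.87 CPM in NB1643, and at 1.41 and 1.30 CPM and then 2.27 and 2.37 CPM in NB1691. Again no groups overlapped, and the log2 fold changes were 0.50 ± 0.13, 0.51 ± 0.13, 1.09 ± 0.15 and 0.78 ± 0.15. PCDHA4 and PCDHA5 had the largest changes among the alpha genes named in CHLA15, 0.76 ± 0.16 and 0.75 ± 0.17. PCDHA12 led in NB1643, from 0.505 and 0.307 CPM to 1.32 and 0.943 CPM, a log2 change of 1.45 ± 0.32 (edgeR adjusted p = 0.00132).

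PCDHB16 was at 1.90 and 1.59 CPM in untreated NB1643 and at 4.004 and 3.996 CPM in the treated libraries, a rise of 1.18 ± 0.13 on the log2 scale (edgeR adjusted p = 9.47e-07). In NB1691 it was at 7.92 and 8.57 CPM and then at 7.18 and 8.78 CPM, where the groups overlapped. PCDHB15 rose by 0.68 ± 0.10 in CHLA15, and PCDHB9 and PCDHB4 rose by 0.85 ± 0.16 and 0.85 ± 0.15 in CHLA20. PCDHB3 rose by 0.69 ± 0.18 in NB1691, from 1.02 and 1.16 CPM to 1.81 and 1.73 CPM (edgeR adjusted p = 0.00618, and 0.0625 without control replicate 1). The beta sum went from 71.2 ± 2.2 CPM (SD, n = 2) to 90.1 ± 0.29 in CHLA15, from 54.8 ± 2.2 to 76.4 ± 0.32 in CHLA20, from 91.1 ± 5.6 to 156 ± 2.5 in NB1643 and from 141 ± 1.7 to 170 ± 2.7 in NB1691.

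Gamma genes were called less evenly. PCDHGA11 was at 1.21 and 1.22 CPM in untreated CHLA15 and 0.729 and 0.897 CPM with palbociclib, at 0.850 and 0.756 and then 0.577 and 0.437 CPM in CHLA20, and at 0.327 and 0.345 and then 0.138 and 0.102 CPM in NB1643. It was lower with palbociclib in these 3 lines without overlap, by 0.58 ± 0.19, 0.67 ± 0.22 and 1.44 ± 0.35 on the log2 scale. In NB1691 it was at 4.08 and 4.38 CPM and then at 4.49 and 4.56 CPM, with a log2 fold change of 0.10 ± 0.14. PCDHGA12 fell in NB1691, from 1.36 and 2.20 CPM to 0.962 and 0.884 CPM, by 0.95 ± 0.26 (edgeR adjusted p = 0.00851). PCDHGB5 fell in CHLA15 by 0.33 ± 0.12 (adjusted p = 0.0427) and PCDHGB6 in NB1643 by 1.23 ± 0.35, from 0.409 and 0.460 CPM to 0.215 and 0.143 CPM, the latter named after its values were seen. Leaving out 1 library ended some of these calls: PCDHGA11 without CHLA15 palbociclib replicate 1 (edgeR adjusted p = 0.1996) or CHLA20 palbociclib replicate 2 (adjusted p = 0.211), PCDHGB5 without CHLA15 palbociclib replicate 2 (adjusted p = 0.195) and PCDHGA12 without NB1691 control replicate 2 (adjusted p = 0.250). PCDHGB7, the leading gene of the CHLA lines, was at 136 and 133 CPM with palbociclib in CHLA15 and at 119 and 116 CPM in CHLA20, above its untreated values in both.

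Of the C-type genes, PCDHGC3 went down in one line and up in another. It fell by 0.26 ± 0.06 in CHLA15, from 26.0 and 27.4 CPM to 23.2 and 21.3 CPM (edgeR adjusted p = 0.00420), and rose by 0.47 ± 0.06 in NB1643, from 29.8 and 27.6 CPM to 40.9 and 38.6 CPM (adjusted p = 6.55e-06). In CHLA20 and NB1691 its log2 fold changes were -0.11 ± 0.07 and -0.12 ± 0.06, not called. PCDHAC1 rose by 0.48 ± 0.17 in NB1643 and by 0.77 ± 0.26 in NB1691, PCDHAC2 by 0.48 ± 0.17 in NB1691, and PCDHGC4 by 0.48 ± 0.14 in CHLA15 and by 0.76 ± 0.14 in CHLA20. PCDHGC5 was not called in any line, with values of 0.0955 to 0.843 CPM. The call for PCDHGC3 in CHLA15 was lost without palbociclib replicate 2 (edgeR adjusted p = 0.0761) and that for PCDHAC1 in NB1691 without control replicate 1 (adjusted p = 0.151).

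The palbociclib effect was compared between lines given the same dose. Between CHLA20 and CHLA15, at 0.3 µM, edgeR called 0 members (2.02% of all genes), as did DESeq2 and limma-voom. At an unadjusted edgeR p under 0.05 there were 8 of 51 members, beside 3177 of 22133 genes. Between NB1691 and NB1643, at 3 µM, 6 of 51 members differed, against 22% of all genes. PCDHGA11 had the more positive effect in NB1691, by 1.53 ± 0.37 (adjusted p = 0.00599), and PCDHB16, PCDHB15, PCDHB9, PCDHGC3 and PCDHB14 the more negative, by -1.24 ± 0.17, -0.74 ± 0.12, -0.74 ± 0.19, -0.59 ± 0.09 and -0.34 ± 0.11. The difference for PCDHGA11 rests on NB1643 values of 0.102 to 0.345 CPM, and that for PCDHB9 was lost without NB1691 palbociclib replicate 1 (edgeR adjusted p = 0.0873).

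**Figure D4:**
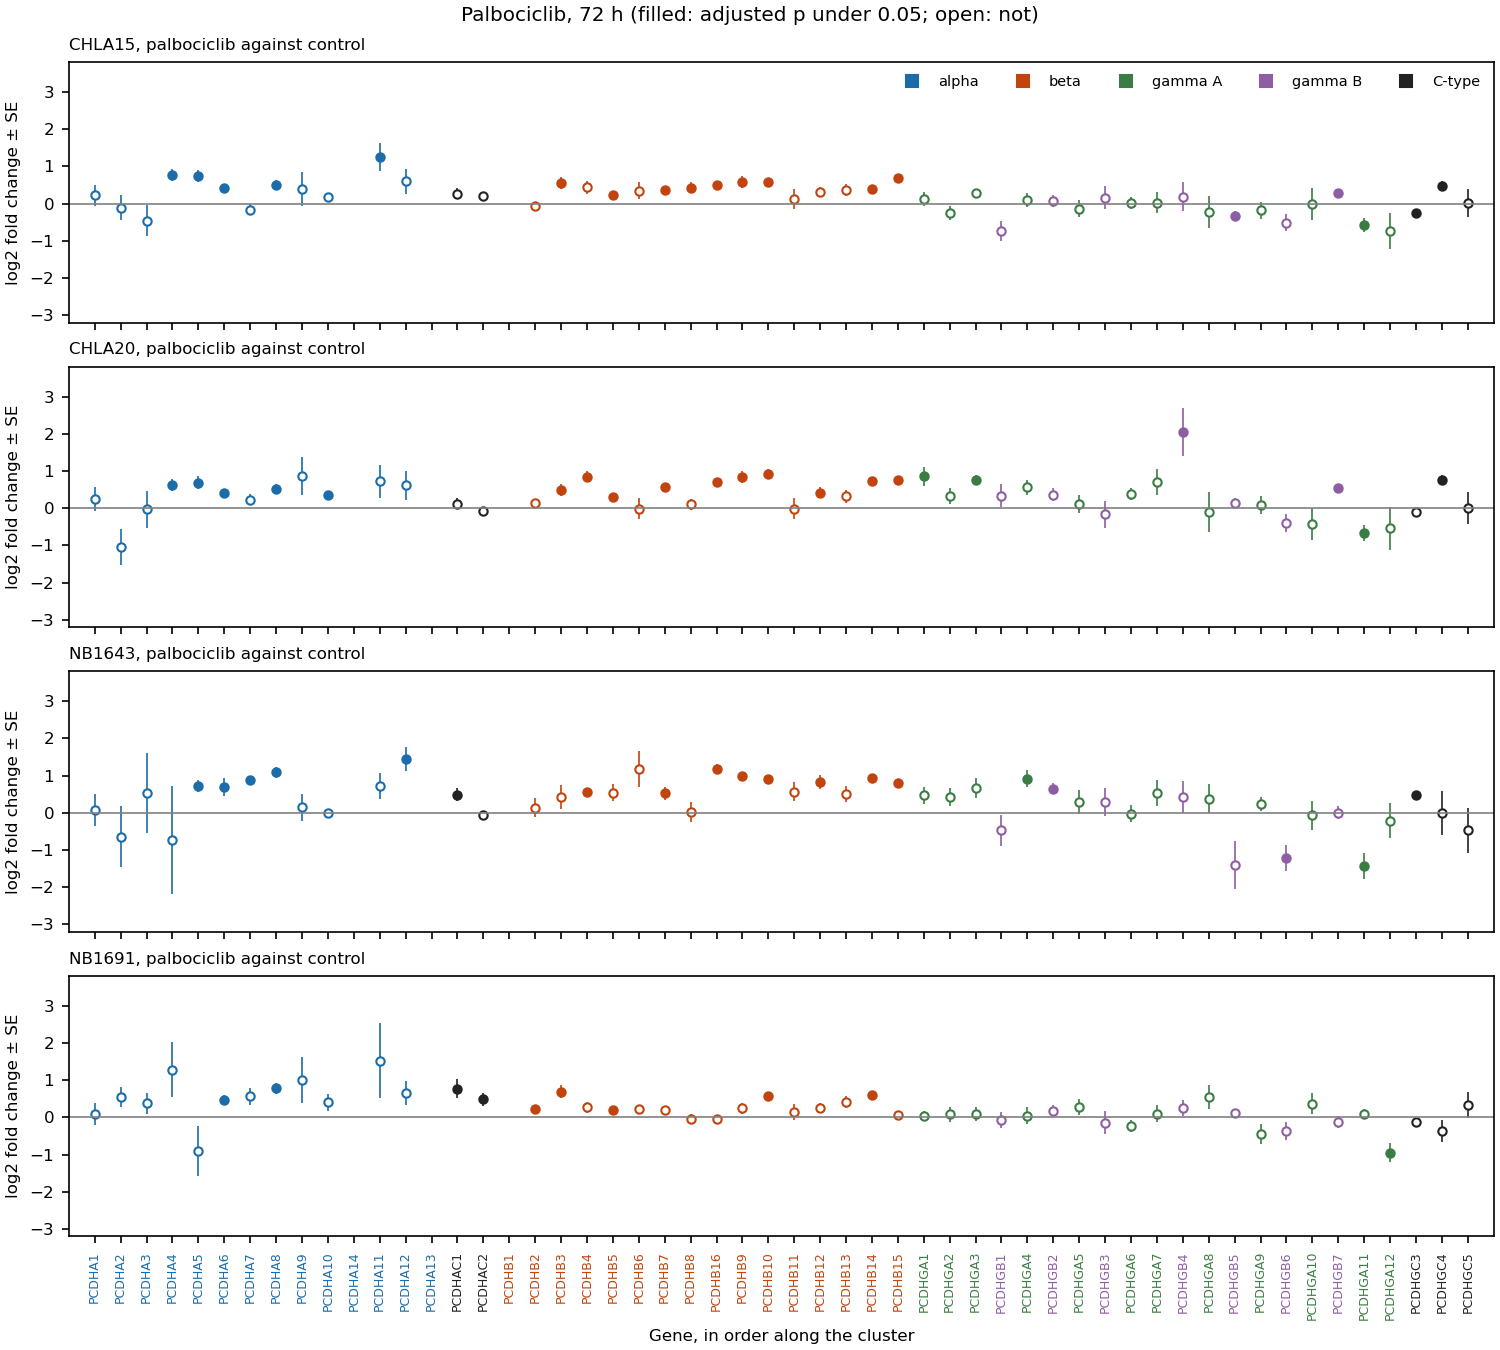
Log2 fold change ± SE of each tested clustered protocadherin with palbociclib for 72 h, against untreated cells of the same line, in 4 panels and in order along the cluster. Filled points passed an adjusted p of 0.05. Filled alpha and beta points all lie above zero, 14 of them in CHLA15, 15 in CHLA20, 13 in NB1643 and 7 in NB1691, and PCDHGA11 is filled below zero in the first 3 panels.

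The sums by array were described without a test. With siCtrl, N1, N2 and N33 the beta sum was 101 and 109, 134, 219.5 and 232 CPM, so each siRNA library lay above both controls. The C-type sum was 62.2 and 68.7 CPM with siCtrl and 94.0, 103 and 72.8 CPM in N1, N2 and N33. The gamma B sum differed widely between the lines, at 120 CPM in CHLA15 and 88.5 CPM in CHLA20, 23.1 CPM in NB1691 and 4.84 CPM in NB1643. All 54 members together stood at 294 ± 4.0 CPM (SD, n = 2) in BE2C at 0 h, 253 ± 6.4 at 24 h and 322 ± 1.1 at 48 h with GSK-J4.

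**Figure D5:**
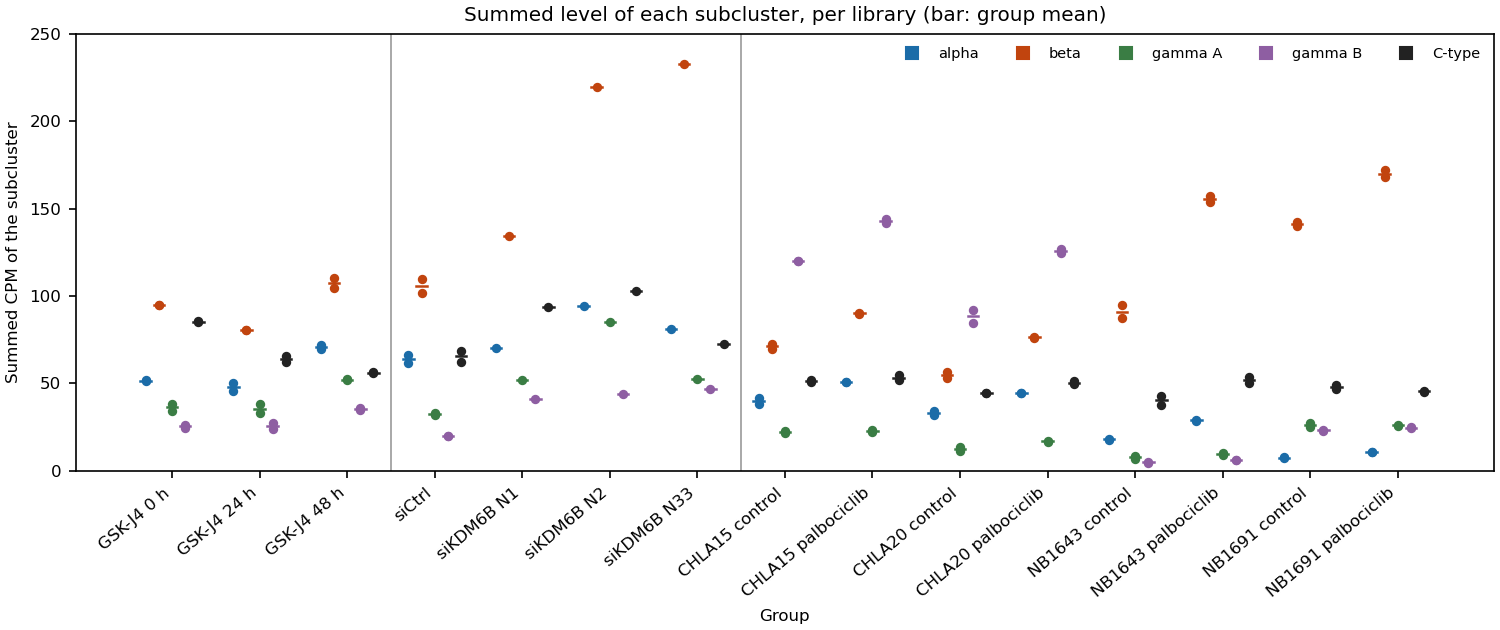
Summed CPM of each array (alpha, beta, gamma A, gamma B and C-type, by colour) in every library (points) with the group mean (bars), for BE2C with GSK-J4, BE2C with siRNA, and the 4 lines without and with palbociclib. C-type falls from 85.3 to 56.1 CPM over 48 h of GSK-J4, beta is highest in N2 and N33 among the BE2C libraries, and gamma B is above 80 CPM in CHLA15 and CHLA20 alone.

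Genes of the factors that contact the promoters were counted from a list of CTCF and cohesin with its loaders and release factors, of which 11 were tested. At 24 h of GSK-J4 1 rose and 5 fell (27.3% and 28% of all genes did), and at 48 h 2 rose and 6 fell (37.1% and 34.4% of all genes did). The largest changes at 48 h were those of CTCF, which binds the promoters, at -0.62 ± 0.03, of STAG1, a cohesin subunit, at -0.61 ± 0.04, and of PDS5B, a cohesin regulator, at 0.51 ± 0.03. With palbociclib 7 of 11 fell in CHLA15, 6 in CHLA20, 9 in NB1643 and 9 in NB1691, and 1 rose, in NB1643, where 15.6%, 15.9%, 19.7% and 15.5% of all genes fell. RAD21, the kleisin subunit of cohesin, fell in all 4 lines, by 0.37, 0.55, 0.78 and 0.79 on the log2 scale. The median of the list was -0.17, -0.18, -0.32 and -0.29, beside 0.00 to 0.02 for all genes.

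Of 13 genes of DNA methylation, H3K9 methylation and neuronal gene repression, 6 rose and 7 fell at 48 h of GSK-J4, when 37.1% of all genes rose and 34.4% fell. REST, a repressor of neuronal genes, rose by 2.11 ± 0.11, DNMT3B, a de novo DNA methyltransferase, fell by 0.97 ± 0.07, and EHMT2, an H3K9 methyltransferase, fell by 0.70. With palbociclib 5 fell and 1 rose in CHLA15, 5 and 0 in CHLA20, 6 and 5 in NB1643 and 5 and 1 in NB1691, beside the shares of all genes given above for each line, 15.5 to 19.7% lower and 13.7 to 20.3% higher. UHRF1, which brings DNMT1 to newly made DNA, fell by 2.20 ± 0.08 in NB1643 and 1.96 ± 0.08 in NB1691, and DNMT1 by 1.34 ± 0.05 and 0.85 ± 0.05.

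The protocadherin genes outside the clusters went both ways. At 48 h of GSK-J4 5 of 10 rose and 4 fell (37.1% and 34.4% of all genes did), with PCDH8 up by 2.04 ± 0.40, PCDH18 down at -1.98 ± 0.07 and PCDH7 down at -1.18 ± 0.06. With palbociclib 5 of 11 rose and 2 fell in CHLA15, 4 and 1 in CHLA20, 4 and 5 in NB1643 and 5 and 0 in NB1691. PCDH17 rose in all 4, by 1.14, 1.496, 1.27 and 0.86 on the log2 scale, and PCDH8 fell by 3.09, 2.14 and 2.31 in CHLA15, CHLA20 and NB1643. Of 15 genes of the WAVE actin regulator and other partners of protocadherin cytoplasmic domains, 10 rose and 3 fell at 48 h of GSK-J4, beside the same shares of all genes, among them PTK2B, a kinase that clustered protocadherins bind, at 1.10 ± 0.12. With palbociclib 3 rose and 3 fell in CHLA15, 2 and 5 in CHLA20, 4 and 4 in NB1643 and 4 and 0 in NB1691. In these lines 13.7 to 20.3% of all genes rose and 15.5 to 19.7% fell.

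Genes beside or between the clusters on 5q31 were counted with GSK-J4 as well. Of 17 tested, 1 rose and 11 fell at 24 h (27.3% and 28% of all genes did), and 2 rose and 14 fell at 48 h (37.1% and 34.4% of all genes did), with a median log2 fold change of -0.33 beside 0.42 for the members and 0.05 for all genes. ARAP3 fell by 2.51 ± 0.07 and GNPDA1 by 1.19 ± 0.03, while FCHSD1 rose by 1.17 ± 0.14. With palbociclib 4 rose and 5 fell in CHLA15, 3 and 3 in CHLA20, 6 and 3 in NB1643 and 7 and 3 in NB1691, where 13.7 to 20.3% of all genes rose and 15.5 to 19.7% fell. None of the genes of these 5 lists was called by edgeR between the siKDM6B and siCtrl libraries. Of the 7 neuroblastoma markers 1 rose and 6 fell at 48 h of GSK-J4, and with palbociclib 2 rose and 2 fell in CHLA15, 2 and 0 in CHLA20, 5 and 0 in NB1643 and 5 and 0 in NB1691. The part of these shifts in the members' changes was not tested.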

How the data were processed

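RNA was sequenced from BE2C, CHLA15, CHLA20, NB1643 and NB1691 cells. The authors deposited 38 tables of read counts per gene, not normalized; per the labels and methods, reads were aligned with STAR 2.5.3a to GRCh37 and counted with HTSeq. The methods name a mouse Gencode release as annotation, and strand use in counting is not given in the sources used here. The 22 BE2C files, 2 per library by their titles, were summed to 11 libraries. Rows that name no gene stayed out of library sizes.

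Counts were tested with edgeR 4.0.16 (quasi-likelihood, TMM, filterByExpr) in R 4.3.3 in 3 fits (GSK-J4, siRNA, palbociclib), adjusted over all genes tested, with a threshold of 0.05; fold changes are log2 ± SE. The method was tested on simulated data. Alternatives were DESeq2 1.42.0, limma-voom (limma 3.58.1), upper-quartile scaling, no filter, a filter of 10 counts in all libraries, a limit of 0.5 on the absolute log2 fold change, a replicate block, each file as a library, and leaving out each library. The SEs come from the same fits and cover the spread between these libraries along with counting error. The floor of 3 counts covers counting error only. GSK-J4 at 24 and 48 h share the 0 h libraries, and the siRNAs share siCtrl.

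Named with values were the C-type genes, 3 called members at each end of the fold changes per comparison (at least 0.5 CPM, groups apart), and the 3 highest per kb in each untreated group; other names are marked. From the other gene lists at most 3 genes are named. Members and lists were chosen with earlier results of these data known. Gene positions and promoters came from GRCh37 with Gencode lifted to it. Some marker genes are not reported here.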

Additional observations from a re-analysis of the deposited data

Results flagged for a closer look

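The palbociclib effect differed between NB1691 and NB1643, both at 3 µM, for 6 of 51 members by a test of the difference itself (edgeR, adjusted over all genes), against 22% of all genes, so the members' share was below the background. The log2 difference, NB1691 minus NB1643, was 1.53 for PCDHGA11, -0.74 for PCDHB9, -0.74 for PCDHB15 and -1.24 for PCDHB16. PCDHB14 and PCDHGC3 were the others. NB1691 also differed from NB1643 in COL1A1 and in the neuroblastoma markers, and the part of this in the differences was not tested.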

How the results depend on the processing

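Of 255 recomputed counts of called members, 210 stayed within 1.5 times the value given and 45 did not. Of 300 recomputed fold changes of named members, 274 stayed past the threshold and 26 did not. The cause was not tested. For GSK-J4 at 24 h the members called higher were 1 with DESeq2, 4 with upper-quartile scaling and 1 to 5 when 1 library was left out, and those lower 3 with an absolute log2 fold change over 0.5 and 7 to 12 with 1 library left out. At 48 h those higher were 24 to 26 with 1 library left out, and those lower 2 with upper-quartile scaling, 1 with the fold limit and 2 to 4 with 1 library left out. From 24 to 48 h those higher were 23 with DESeq2 and 26 to 33 with 1 library left out. For the siRNAs DESeq2 called 3 and the count was 29 with each file taken as a library, where 2 files of 1 library are not independent. With palbociclib in CHLA15 those higher were 9 with the fold limit and 9 to 13 with 1 library left out, and those lower 1 with DESeq2, with 10 counts in every library and with the fold limit, and 0 to 2 with 1 library left out. In CHLA20 those higher were 13 to 18 with 1 library left out, and those lower 0 with DESeq2, with no filter and with 10 counts in every library, and 0 to 1 with 1 library left out. In NB1643 those lower were 0 with 10 counts in every library and 1 to 3 with 1 library left out. In NB1691 those higher were 5 with the fold limit and 3 to 5 with 1 library left out, and those lower 0 with DESeq2 and with 10 counts in every library, and 0 to 1 with 1 library left out. The difference of effects between CHLA lines gave 0 to 1 with 1 library left out. Untreated CHLA20 against CHLA15 gave 9 to 18 lower with 1 library left out, NB1691 against NB1643 gave 21 higher with 10 counts in every library, and 32 members differed among the lines under that filter. At 0.1 CPM 47 members were detected in NB1643 with palbociclib and 45 without, and at 1 CPM 16 without. A stricter filter removes members that are near 0 in 1 group. The same replicate numbers did not pair the samples (correlations of deviations 0.01 to 0.04 for GSK-J4 and -0.05 to 0.12 for palbociclib). With the replicate block, 29 members were higher at 48 h of GSK-J4, no count moved by over 1.5 times, and among named members the block ended the call of PCDHGB5 in CHLA15 alone (edgeR adjusted p = 0.0558); the siRNA groups share too few replicate numbers for a block. With 2 libraries per group, and 1 per siRNA, changes of members under about 1 CPM rest on few reads.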
